A study of Mus musculus with 52 samples.

Results

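The cytosolic ribosomal protein genes are the genes for the proteins of the small (40S) and large (60S) subunits of the ribosome that works in the cytosol. They were chosen by symbol in a mouse count table, as Rpl or Rps followed by a number and at most 1 letter a, l, x or y, together with Rplp0, Rplp1, Rplp2 and Rpsa, leaving out Rps27l and the pseudogene names. This gave 82 of 23135 genes in the table, 31 named for the 40S and 51 for the 60S subunit, and each had at least 1 count in the 52 libraries. The rule uses no measured value, though it was set with earlier results of these data known.

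The libraries came from CD103+ cDC1, the conventional dendritic cells specialised in cross-presentation, grown from C57BL/6 mouse bone marrow with FLT3 ligand and GM-CSF and then sorted. RNA was counted in bulk by unique molecular identifiers at its 3' end, with 4 libraries in each of 13 groups. At 4 h, 5 groups received prostaglandin E2 (PGE2) at 100 ng/ml after 30 min with an antagonist at 5 uM: SC-19220 against the receptor EP1, PF-04418948 against EP2, L-826,266 against EP3, L161,982 against EP4, and a pair against EP2 and EP4. For that pair the treatment label lists SC-19220 beside L161,982, so the compound behind the EP2 block is uncertain. The other 4 h groups received PGE2 alone, medium conditioned (CM) by BRAFV600E melanoma cells (control CM), CM of Ptgs1/Ptgs2-/- BRAFV600E melanoma cells, which lack the enzymes that start prostaglandin synthesis, or nothing. At 24 h the groups received PGE2 with poly I:C, poly I:C alone, PGE2 alone, or nothing. Poly I:C, a ligand of the double-stranded RNA receptor TLR3, was present at 10 ug/ml for the last 4 h. The labels call the 4 libraries of a group biological replicates without naming animals, so a p-value describes only the spread among these libraries, which may be technical.

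Ribosomal proteins are made in nearly equal numbers, because a ribosome holds a single copy of most of them. Their mRNAs typically begin with a 5' terminal oligopyrimidine (TOP) tract, through which mTORC1 and the binding protein LARP1 control their translation as a group. Dendritic cells that sense double-stranded RNA mature within hours and redirect protein synthesis towards cytokines, interferon-stimulated genes and antigen presentation.

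Library totals had a median of 295484.5 counts and a maximum of 438491. The 2 shallowest were EP4 antagonist A, with 42666 counts, and untreated A of 4 h, with 54107. Summed levels of 12 cDC1 markers, in CPM (counts scaled to the library total), ran from 6240 to 12270 CPM at 4 h. There the sum was 6450 to 7010 CPM with PGE2 and 11380 to 11910 CPM untreated, without overlap. It was 8287 to 8448 CPM in control CM and 9236 to 12270 CPM in Ptgs1/Ptgs2-/- CM. With an antagonist and PGE2 it lay between 6240 and 9761 CPM. In the 24 h groups the sum was 3265 to 3889 CPM with PGE2 and poly I:C, 3065 to 3409 CPM with poly I:C, 6662 to 6817 CPM with PGE2 and 9821 to 10350 CPM untreated. The 8 macrophage and monocyte markers summed at 24 h to 249 to 267 CPM with PGE2 and poly I:C, 264 to 394 CPM with poly I:C, 1870 to 2265 CPM with PGE2 and 1164 to 1687 CPM untreated. The 5 plasmacytoid markers summed to 542 to 753 CPM with PGE2 and poly I:C, 394 to 508 CPM with poly I:C, 127 to 172 CPM with PGE2 and 124 to 193 CPM untreated. Only Bst2 and Tcf4 of this list had counts high enough to be tested at 24 h. The sum is not split by gene here, so it does not measure plasmacytoid cells. The 6 cDC2 markers summed to 29.6 to 34.9 CPM with PGE2 and poly I:C, 7.04 to 17.9 CPM with poly I:C, 141 to 193 CPM with PGE2 and 77.2 to 116 CPM untreated. Of the granulocyte and mast cell, lymphocyte and melanoma lists 3 genes each were in the table, and their sums reached at most 14.1, 23.4 and 9.06 CPM in any library, with Nkg7 and Dct at 0 throughout. The part of these marker levels in the results below was not tested, and in bulk RNA a smaller number of cells of a type and less RNA per cell cannot be told apart.

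The 82 genes held 607662 of 14890442 counts, or 4.08%. Each molecule is counted once at its 3' end, so levels need no length term. How completely each gene's 3' end was counted was not tested, so differences in level between genes are uncertain. Among the most abundant members, Rplp0, the base of the 60S stalk that recruits elongation factors, held 9.07% of the family's counts. Rpl32 had 7.88%, Rps20 had 6.64% and Rpl13 had 5.71%. The 10 most abundant genes made up 61.8% of the family, and 13 members averaged over 1000 CPM. At the other end 20 members averaged under 10 CPM, 5 of them under 1 CPM.

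Low levels were found both in tissue-restricted paralogs and in core proteins. Rpl39l and Rpl10l, known from testis, had 2 and 9 counts in all 52 libraries together, and Rpl3l, known from striated muscle, had 6. Rps4l had 18 counts and Rpl6l had 6, and both are annotated as processed pseudogenes despite their names. Rps6, the 40S protein phosphorylated by S6 kinase and present in every ribosome, had 11 counts, against 55106 for Rplp0. Rpl24, named here after its values were seen, had 21 counts, and 50% of its last 250 transcript bases overlapped the annotated gene Gm28037.

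The 3' ends of many members were shared with other transcripts. In 39 of the 82 members, 50% or more of the 50-base words in the last 250 transcript bases also occurred in transcripts of other genes of the same annotation (GENCODE M21, GRCm38). Their median level was 71.0 CPM, and 13 of the 39 averaged under 10 CPM. Where no word was shared the median was 180 CPM and 5 of 30 were under 10 CPM, and the 13 members in between had a median of 236 CPM. For Rps6 the shared part was 79.1%. Among members picked as examples after their values were seen, Rpl10 and Rps27 shared 100% and averaged 7.49 and 2.72 CPM, while Rpl5 and Rpl28 shared none and averaged 4.58 and 4.75 CPM. Rpl13 shared 79.1% and averaged 2322 CPM. The table also held 267 rows of ribosomal protein pseudogenes with 105872 counts, 0.711% of all counts. The sources used here do not say how reads with several matching genes were counted. A member's level is therefore more uncertain where its 3' end is shared. Comparisons of 1 member between groups use the same 3' end on both sides. Whether a change in a gene that shares this sequence moved a member's count was not tested.

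**Figure D1:**
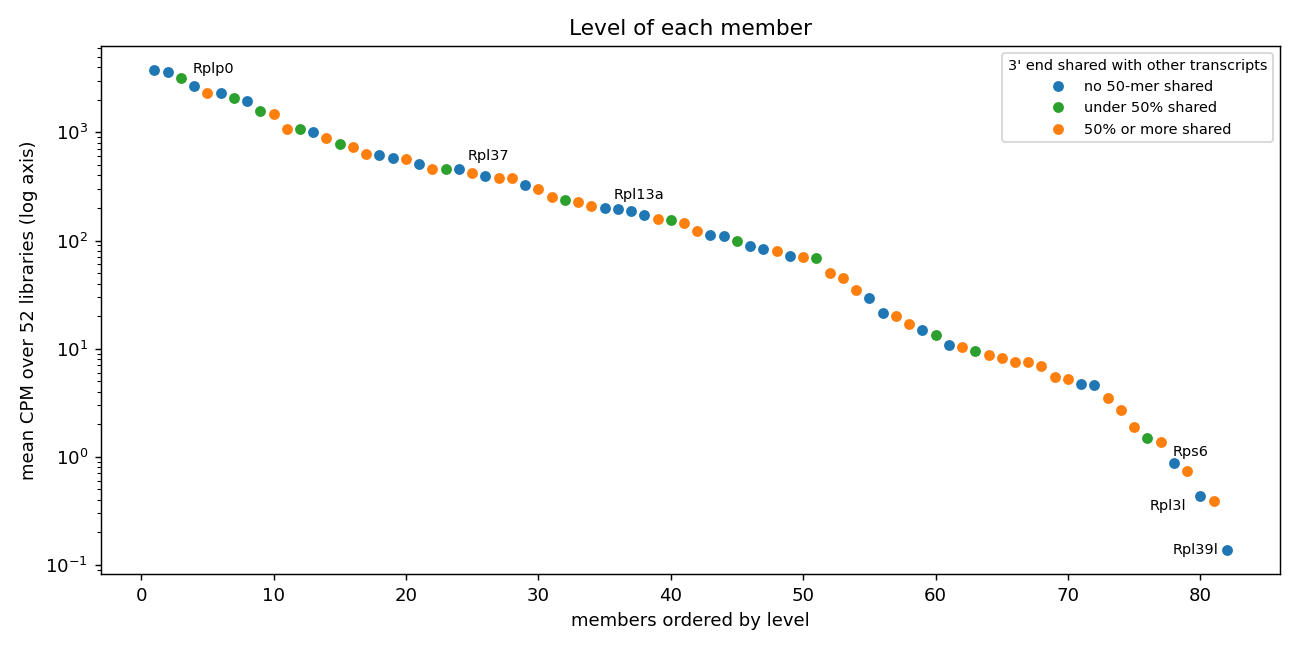
Mean level of each of the 82 members over 52 libraries in CPM (log axis), ordered from highest to lowest and coloured by the share of 50-base words of the transcript's last 250 bases that occur in transcripts of other genes. Levels span from over 1000 CPM for 13 members to 0.136 CPM for Rpl39l, and members with 50% or more shared words lie between 2322 and 0.385 CPM.

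The family's share of the counts was lowest in the poly I:C groups and highest in untreated cells of 24 h. Among the 4 h groups the mean share was 3.93 ± 0.49% with the EP1 antagonist and PGE2, 4.32 ± 0.09% with the EP2, 4.46 ± 0.09% with the EP3, 4.13 ± 0.27% with the EP4 and 4.33 ± 0.11% with the EP2 and EP4 antagonists (SD, n = 4 each). It was 3.91 ± 0.16% with PGE2, 4.29 ± 0.29% in control CM, 4.26 ± 0.26% in Ptgs1/Ptgs2-/- CM and 3.82 ± 0.49% in untreated cells. At 24 h it was 3.07 ± 0.12% with PGE2 and poly I:C, 3.36 ± 0.14% with poly I:C, 4.13 ± 0.16% with PGE2 and 4.73 ± 0.25% in untreated cells. The counting error of 1 library was small beside the differences at 24 h, with a 95% exact binomial half-width of at most 0.181 percentage points and a median of 0.0734, which covers counting error only.

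**Figure D2:**
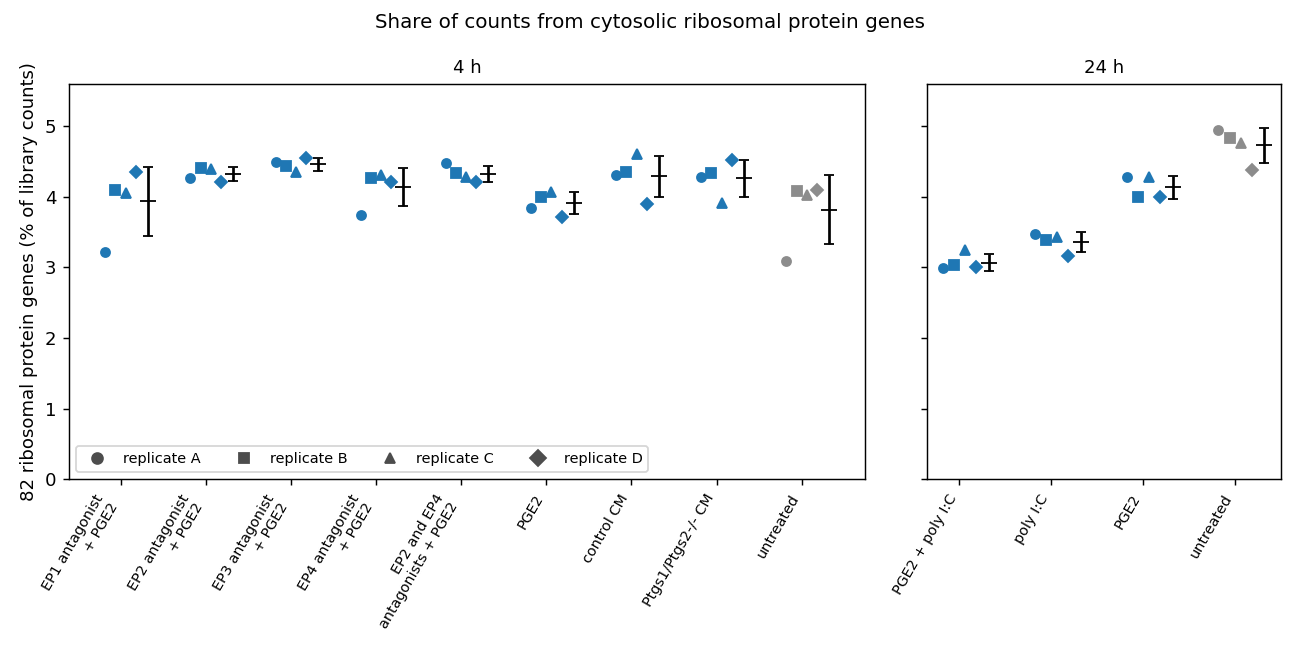
Share of each library's counts that fell on the 82 ribosomal protein genes, in percent, by group at 4 h and at 24 h; markers are replicates A to D and the bars show the mean and SD of 4 libraries. The libraries with poly I:C lie between 2.99% and 3.47%, below every untreated library of 24 h, and the shallow untreated library A of 4 h stands apart at 3.09%.

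The family took a smaller share of the counts after poly I:C. Its members held 3.47, 3.38, 3.42 and 3.16% of the counts in the 4 poly I:C libraries, against 4.94, 4.84, 4.76 and 4.38% in the 4 untreated libraries of 24 h. The groups did not overlap, and the difference of 1.37 percentage points was 29.0% of the untreated level. Rows of ribosomal protein pseudogenes were at 0.586% of the counts with poly I:C and 0.849% untreated, a ratio of 0.690, beside 0.710 for the family. The 60S to 40S ratio of summed counts was 1.11 ± 0.03 with poly I:C and 1.18 ± 0.01 untreated (SD, n = 4 each), also without overlap. The noncoding gene Gm42418, which carries ribosomal RNA sequence, held 3.44% of the counts with poly I:C and 5.55% untreated. The part of that shift in the result was not tested.

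The direction of the single members depended on what they were measured against. Relative to library totals alone, 44 of the 57 tested members were lower with poly I:C and none was higher, against 56.8% of all tested genes called lower (2997 lower and 1015 higher). A few genes took up many more counts, among them the chemokine gene Ccl5 with 4.06% of the counts with poly I:C and 0.104% untreated. TMM scaling, which sets the level by the bulk of the genes and was used for all comparisons below, gave 19 members higher, against 31.2% of all genes, and 2 lower, against 33.8% (1646 higher and 1783 lower). With totals adjusted by TMM the family's share was 0.619 percentage points higher with poly I:C than untreated. The median of all 5273 genes moved with the scaling, at -0.10 with TMM and -0.82 with library totals on the log2 scale. Relative to that median, the members' median was 0.28 higher with TMM, and a change of scaling leaves this difference nearly as it is by construction. The family took a smaller share of the counts, while its median member lay above the median gene. With DESeq2 the test gave 12 members, 9 higher and 3 lower.

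**Figure D3:**
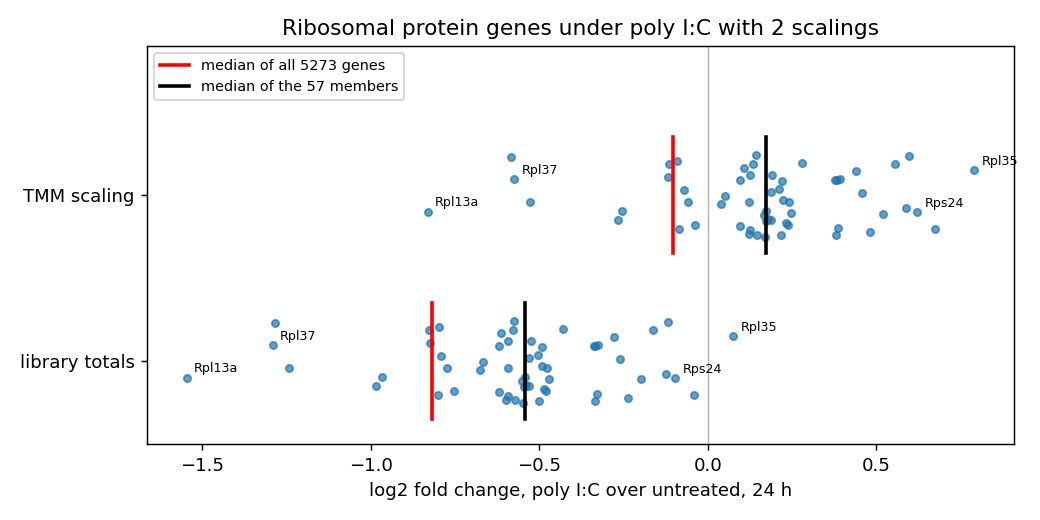
Log2 fold change of each of the 57 tested members, poly I:C over untreated at 24 h, with TMM scaling (top) and with library totals (bottom); each point is a member, spread vertically for visibility, and the lines mark the medians of the members and of all 5273 genes. The rows differ by a nearly constant shift, with the members' median right of the median of all genes and Rpl13a at the low end.

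The 19 members higher under TMM, a share near the 31.2% of all genes, came from both subunits. Rplp0 stood at 4257, 4526, 4499 and 4180 CPM (TMM-adjusted) in the poly I:C libraries, against 3382, 3361, 3115 and 2841 CPM in the untreated ones. Every poly I:C library lay above every untreated library, with a log2 fold change of 0.46 ± 0.08 (SE, edgeR quasi-likelihood test, adjusted p = 4.5e-08). Its partner Rplp1 had 0.39 ± 0.10 (adjusted p = 0.00023). The other stalk gene, Rplp2, was not called (0.17 ± 0.13, adjusted p = 0.24). Rps24, a 40S protein needed to mature the 18S rRNA, stood at 707, 855, 780 and 679 CPM, against 528, 548, 482 and 393 CPM, again without overlap (0.62 ± 0.11, adjusted p = 4e-07). Rpl35, at the mouth of the peptide exit tunnel, had 0.79 ± 0.20 (adjusted p = 0.00027), and 99.5% of its 3' words were shared with 8 other genes, which leaves its count uncertain.

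Also higher under TMM were Rps19 (0.52), Rps9 (0.48), Rps20 (0.39), Rps3 (0.38), Rps2 (0.44) and Rps14 (0.22) of the 40S subunit, and Rpl35a (0.60), Rpl7 (0.68), Rpl19 (0.59), Rpl29 (0.55), Rpl26 (0.38), Rpl8 (0.24), Rpl14 (0.24) and Rpl41 (0.23) of the 60S subunit, all as log2 fold changes. On library totals 18 of the 19 members had a negative log2 fold change, Rpl35 being the exception.

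The 2 members called lower under both scalings were Rpl13a and Rpl37. Rpl13a is a 60S protein that in human monocytes leaves the ribosome after interferon gamma and joins a complex that silences inflammatory mRNAs, and its introns host small nucleolar RNAs. It lies on chromosome 7 (GRCm38, 45125558 to 45128761, minus strand), and no 50-base word of its 3' end was shared with another gene. It stood at 162, 153, 175 and 111 CPM in the poly I:C libraries, against 333, 246, 248 and 231 CPM in the untreated ones. The groups did not overlap, and the log2 fold change was -0.83 ± 0.17 (adjusted p = 9e-06). Rpl37, a zinc-binding 60S protein on chromosome 15 (5116645 to 5119140, plus strand), stood at 286, 324, 347 and 275 CPM with poly I:C, against 458, 555, 485 and 328 CPM untreated. Here the untreated library D lay within the poly I:C range, and the log2 fold change was -0.57 ± 0.13 (adjusted p = 7.9e-05). Both calls held in 8 of 8 fits that left out 1 library.

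To ask which members departed from the family, the summed count of the 82 genes was used as the library size, so that a value of 0 means that a member moved with the family. Under poly I:C 10 of the 57 members departed, 5 lower, against 39.7% of all genes called lower on this scale, and 5 higher, against 26.4%. As the family's sum sets that scale, values above 0 must be offset by values below it. In percent of the family's counts, Rpl13a was at 0.372, 0.343, 0.410 and 0.276% with poly I:C, against 0.876, 0.651, 0.678 and 0.685% untreated (log2 -1.05 ± 0.18, adjusted p = 5.8e-08). Rpl37 was at 0.658, 0.728, 0.811 and 0.685% with poly I:C, against 1.21, 1.47, 1.32 and 0.973% untreated (log2 -0.79 ± 0.14). Neither pair of groups overlapped on this scale.

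Rpl11, which with Rpl5 and the 5S rRNA can bind and inhibit Mdm2, was at -0.75 ± 0.28 relative to the family (adjusted p = 0.016) and at 0.0637, 0.146, 0.140 and 0.133% of the family with poly I:C, against 0.231, 0.166, 0.204 and 0.220% untreated. Its groups did not overlap, though it was of low level. Rpl27a was at -0.48 ± 0.19 (adjusted p = 0.017) and Rpl32, the third most abundant member, at -0.30 ± 0.09 (adjusted p = 0.0021). On the higher side stood Rpl35 (0.58), Rps24 (0.40), Rps19 (0.30), which is mutated in human Diamond-Blackfan anaemia, Rps9 (0.26) and Rplp0 (0.24). DESeq2 on the same scale also gave 10 departing members, and leaving out 1 library gave 8 to 11.

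**Figure D4:**
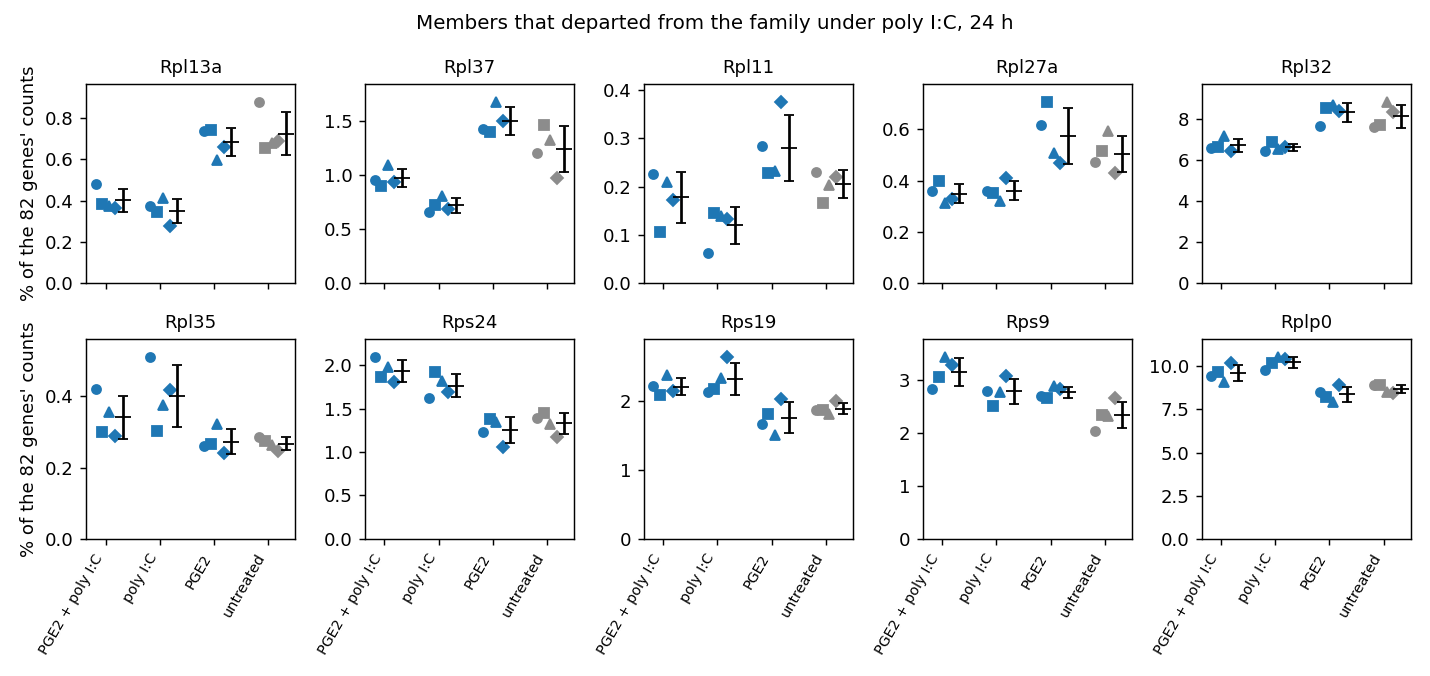
Share of the family's counts, in percent, for the 10 members that departed from the family under poly I:C, in the 4 groups of 24 h; markers are replicates A to D and the bars show the mean and SD of 4 libraries, and each panel has its own axis from 0. Every library with poly I:C, with or without PGE2, lies below the untreated libraries for Rpl13a and above them for Rps24.

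The bases around the annotated transcription start are shown for 9 of the 10 departing members, all but Rpl32, because a TOP tract is the sequence feature these genes are known for. Each line gives the 15 bases before and the first 15 bases of the transcript in RefSeq's GRCm38.p6 annotation, 5′ to 3′ on the gene's strand. Capitals mark a run of at least 6 C or T bases that opens with C within 5 bases of the annotated start.
Rpl13a (chr7:45128731-45128760, minus strand): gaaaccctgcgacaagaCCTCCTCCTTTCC
Rpl27a (chr7:109519180-109519209, plus strand): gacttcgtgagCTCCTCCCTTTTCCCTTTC
Rpl37 (chr15:5116598-5116627, plus strand): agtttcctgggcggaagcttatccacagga
Rpl11 (chr4:136053379-136053408, minus strand): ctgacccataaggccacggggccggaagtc
Rpl35 (chr2:39005117-39005146, minus strand): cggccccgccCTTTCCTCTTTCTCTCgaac
Rps24 (chr14:24490663-24490692, plus strand): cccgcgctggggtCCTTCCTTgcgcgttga
Rps9 (chr7:3704026-3704055, plus strand): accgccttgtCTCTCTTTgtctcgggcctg
Rps19 (chr7:24884661-24884690, plus strand): ccgcacggtgagtgagggctctgggtcgcg
Rplp0 (chr5:115559452-115559481, plus strand): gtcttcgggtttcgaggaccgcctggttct

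A run was found in 2 of the 4 lower members shown and in 3 of the 5 higher ones. Over the family, 26 of 60 members with a window held one (43.3%), against 3203 of 26965 other genes (11.9%). So runs occurred on both sides of the departures, and a window without one says only that these letters are absent at this annotated start. RefSeq and GENCODE M21 place some starts differently. For Rpl37 the whole window lies upstream of the GENCODE start given above. For Rpl13a, where a run was found, the whole window lies downstream of the GENCODE start. The count for the lower members therefore rests on RefSeq's starts for both genes.

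Genes that build the ribosome were mostly lower under poly I:C. Of 17 tested genes for nucleolar ribosome assembly 14 fell and 1 rose, Rcl1, with a median log2 fold change of -1.51, beside -0.10 for all genes and 0.17 for the members. Nop58, a core protein of the box C/D small nucleolar particles, stood at 43.3 ± 11.6 CPM with poly I:C and 254 ± 30.1 CPM untreated (SD, n = 4 each; log2 -2.56 ± 0.23, adjusted p = 8.4e-22). Ncl, the abundant nucleolar protein nucleolin, stood at 173 ± 37.3 CPM and 410 ± 26.0 CPM (-1.26 ± 0.15, adjusted p = 3.8e-13). In the same comparison Sbds and Eif6, which act in the last step that readies the 60S subunit for joining, rose by 3.36 and 2.24 log2 units (adjusted p = 2.1e-47 and 4.7e-40), and Eif2ak2, the kinase PKR that halts initiation on sensing double-stranded RNA, rose by 3.17. These belong to a list of 8 tested genes for ribosome quality control and hibernation, of which 4 rose and 3 fell. Among all genes 31.2% were called higher and 33.8% lower, which is the background for this and the other lists under poly I:C.

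Mitochondrial ribosomal proteins, a group added after its values were seen, were lower too. Their 76 genes held 0.240 ± 0.013% of the counts with poly I:C and 0.713 ± 0.036% untreated, a ratio of 0.337, while the ratio of the cytosolic family was 0.710. Of 59 tested, 34 fell and 5 rose, against 33.8% and 31.2% of all genes. Among 17 translation factors with a TOP start 2 rose and 7 fell, the falls being near the 33.8% of all genes. Pabpc1, the poly(A)-binding protein, rose by 1.46 ± 0.09 (adjusted p = 2e-34) and Tpt1 by 1.79 ± 0.39, while Eif3a fell by 1.07 ± 0.20. Among 12 regulators of mTORC1 and MYC 4 rose and 3 fell, near the background in both directions. Larp1, which binds TOP tracts, rose by 1.30 ± 0.26 and the MYC antagonist gene Mxd1 by 6.60 ± 0.18 (adjusted p = 9.9e-86). Of 4 tested host genes of small nucleolar RNAs with a TOP start none rose, and Snhg5 and Snhg1 fell. Of 9 tested genes outside the rule that are related to ribosomal protein genes by name or product 2 rose, Rps27l and Rpl22l1, and 2 fell, Rpl7l1 and Rps19bp1, the last of which encodes a protein that binds Rps19.

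With PGE2 added to poly I:C, 2 members were called lower, a smaller share than among all genes. The family's share was 2.99, 3.03, 3.25 and 2.997% with PGE2 and poly I:C, against 3.47, 3.38, 3.42 and 3.16% with poly I:C alone, and the groups overlapped. Of 57 tested members 2 fell, against 5.65% of all genes called lower. Rps2, a 40S protein at the mRNA entry channel, stood at 198, 207, 167 and 180 CPM, against 397, 324, 302 and 225 CPM, without overlap (log2 -0.71 ± 0.17, adjusted p = 0.00081). Its 3' words were shared to 72.6% with 42 other genes. Rpl14 had -0.31 ± 0.10 (adjusted p = 0.028). The call for Rps2 held in 8 of 8 fits that left out 1 library, and that for Rpl14 was lost without libraries A or B with PGE2 and poly I:C and without poly I:C libraries C or D. Rpl13a stood at 0.08 ± 0.19 in this comparison (adjusted p = 0.87), and its levels of 186, 151, 162 and 137 CPM with both agents were again below the untreated ones. No member passed the test of the interaction between PGE2 and poly I:C, against 3.34% of all genes, while 3 members had an unadjusted p under 0.05 in edgeR. DESeq2 called none there, and 1 member passed when poly I:C A or untreated D was left out.

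After 24 h of PGE2 alone the family was lower. Its share was 4.28, 3.99, 4.27 and 3.99% with PGE2, against 4.94, 4.84, 4.76 and 4.38% untreated, without overlap and with a difference of 0.596 percentage points, 12.6% of the untreated level. In the same libraries the summed cDC1 markers were lower with PGE2 than untreated, and the macrophage and monocyte and the cDC2 markers higher, each without overlap, and their part in the result was not tested. Under TMM 50 of 57 tested members had a negative log2 fold change, with a median of -0.21 beside 0.03 for all genes. Past the threshold were 5, all lower, against 3.32% of all genes called lower. Rps20, a protein of the 40S head, measured 2169, 1822, 1871 and 1797 CPM with PGE2, against 2642, 2646, 2375 and 2120 CPM untreated (-0.35 ± 0.08, adjusted p = 0.0011). Only the highest PGE2 library reached the lowest untreated one. Rplp0 (-0.23 ± 0.08, adjusted p = 0.046) and Rplp1 (-0.32 ± 0.10, adjusted p = 0.027) of the stalk fell, as did Rpl21 (-0.83 ± 0.25, adjusted p = 0.019). Rps20 passed in all 8 fits that left out 1 library. The number of members called was 1 to 3 when untreated A, B or C or PGE2 B, C or D was left out, and 9 when only these groups were fitted. Relative to the family no member departed, against 10.2% of all genes called on that scale, with 5 members at an unadjusted p under 0.05 in edgeR and 4 in DESeq2.

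After 4 h of PGE2 no member passed the test. The family's share was 3.84, 4.00, 4.07 and 3.72% with PGE2, against 3.09, 4.07, 4.02 and 4.09% in untreated cells of 4 h, where the first value is the library with 54107 counts. The mean difference was 0.0909 percentage points with that library and -0.153 without the shallow libraries. No member of 56 was called, against 8.57% of all genes (299 higher and 194 lower, and 242 higher and 321 lower on library totals). There were 6 members with an unadjusted p under 0.05 in edgeR and 5 with DESeq2, which also called none, while library totals called 1 and the fits with only these groups or without untreated C or D called 1 or 2. Rplp0, which fell at 24 h, had 0.30 ± 0.12 at 4 h (adjusted p = 0.092), and Rps20 had 0.10 ± 0.11 (adjusted p = 0.69). Whether the response to PGE2 differed between the times was not tested. Relative to the family 1 member was lower, against 4.4% of all genes: Rpl3, which reaches towards the peptidyl transferase centre, at 1.15, 1.52, 1.19 and 1.39% of the family with PGE2, against 2.52, 1.84, 1.48 and 1.63% untreated (-0.41 ± 0.14, adjusted p = 0.042). That call was lost when untreated A, B or D or PGE2 A, C or D was left out, and with DESeq2.

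Outside the family, but close to it by name, Rps27l was higher with PGE2 at 4 h. It encodes a paralog of Rps27 that p53 induces, and it was left out by the rule. It stood at 1603 ± 134 CPM (SD, n = 4) with PGE2 and 772 ± 110 CPM untreated at 4 h (1.03 ± 0.13, adjusted p = 1.1e-11). It was also higher in control CM than in Ptgs1/Ptgs2-/- CM (0.86 ± 0.12, adjusted p = 1.8e-08), and lower with the EP2 and EP4 antagonists than with PGE2 alone (-1.07 ± 0.12, adjusted p = 2.3e-13). With poly I:C it stood at 2865 ± 359 CPM, against 710 ± 49.0 CPM untreated at 24 h (2.01 ± 0.09, adjusted p = 8.2e-52). With PGE2 at 24 h it stood at 818 ± 71.3 CPM, and the difference did not pass the test (0.20 ± 0.10, adjusted p = 0.21). Rps27 itself averaged 2.72 CPM. Among the 17 tested assembly genes Nop58 fell with PGE2 at 4 h (-0.89 ± 0.18, adjusted p = 6.2e-05), and of 13 tested regulators Myc fell (-1.57 ± 0.27, adjusted p = 1.7e-06). Of the translation factors Npm1 fell (-0.70 ± 0.19, adjusted p = 0.0044). Of the quality control and hibernation genes Eif2ak3 rose (2.91 ± 0.58, adjusted p = 5.4e-05). Among all 5754 genes tested there, 299 were called higher and 194 lower. With the EP2 and EP4 antagonists Myc was higher than with PGE2 alone (1.09 ± 0.27, adjusted p = 0.0021). At 24 h of PGE2 none of the 17 assembly genes passed, and of 12 regulators 3 rose, the mTORC1 inhibitor gene Ddit4 (2.54) and the MYC antagonist genes Mxd1 (1.12) and Mxd4 (1.07). Among all 5273 genes tested at 24 h, 250 were called higher with PGE2 and 175 lower.

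Between the melanoma media the shares overlapped. The family held 4.31, 4.35, 4.60 and 3.89% in control CM, against 4.27, 4.34, 3.91 and 4.51% in Ptgs1/Ptgs2-/- CM. No member of 56 was called between them, against 3.86% of all genes (134 higher and 88 lower, and 120 higher and 121 lower on library totals), and 2 had an unadjusted p under 0.05. No member departed from the family either, against 3.51% of all genes on that scale, with 1 at an unadjusted p under 0.05 in edgeR. DESeq2 called none in either test.

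Against untreated cells, 3 of 56 members were higher in control CM, against 4.68% of all genes called higher (269 higher and 163 lower, and 230 higher and 235 lower on library totals). Rps3, a 40S protein at the mRNA entry site, stood at 2252, 2241, 2435 and 2039 CPM, against 972, 1763, 1811 and 1872 CPM (0.42 ± 0.11, adjusted p = 0.0066). Rps15 had 0.49 ± 0.15 (adjusted p = 0.021) and Rps20 had 0.32 ± 0.11 (adjusted p = 0.0496). The shallow untreated library A was the lowest for each of the 3. Without it no member was called, and without untreated B or control CM B 1 was. DESeq2 also called 3. In Ptgs1/Ptgs2-/- CM no member was called, against 0.0869% of all genes, with 8 at an unadjusted p under 0.05 and none by DESeq2.

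Blocking the PGE2 receptors left most members short of the test's threshold. Shares with the EP2 antagonist (4.21 to 4.40%), the EP3 antagonist (4.34 to 4.55%) and the EP2 and EP4 antagonists (4.21 to 4.48%) did not overlap those with PGE2 alone (3.72 to 4.07%), while those with the EP1 (3.22 to 4.35%) and EP4 antagonists (3.74 to 4.31%) did. The EP4 overlap rests on the shallow library A of that group. These 5 comparisons share the 4 PGE2 libraries. With the EP1 antagonist no member was called, against 0% of all genes, with the EP2 antagonist none, against 0.417%, and with the EP4 antagonist none, against 0.0348%. DESeq2 also called none in these, and 2, 7 and 6 members had an unadjusted p under 0.05 with the EP1, EP2 and EP4 antagonists. The EP3 antagonist gave 1 member higher, against 0.0348% of all genes: Rpl18 at 368, 298, 364 and 405 CPM, against 203, 213, 210 and 241 CPM with PGE2 (0.74 ± 0.16, adjusted p = 0.03). The groups did not overlap, and the call was lost without PGE2 A, B or C or EP3 antagonist A, C or D. All 4 libraries with the EP2 and EP4 antagonists, at 278 to 311 CPM, were above PGE2 alone too, though Rpl18 was not called there (adjusted p = 0.055). Its 3' words were shared to 77.1% with 5 other genes, and those of Rpl35a to 63.7% with 16.

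With the EP2 and EP4 antagonists 1 member was higher, against 4.1% of all genes called higher (236 higher and 309 lower, and 381 higher and 262 lower on library totals). It was Rpl35a, at 212, 168, 222 and 178 CPM, against 117, 164, 125 and 108 CPM with PGE2 (0.59 ± 0.20, adjusted p = 0.039). Library totals gave 7 members, all higher, and DESeq2 none. The call was lost without PGE2 A, C or D and without EP2 and EP4 antagonist A or C. Relative to the family 1 member was lower, against 5.42% of all genes: Rps14 at 4.59, 5.12, 4.50 and 4.17% of the family, against 6.01, 6.97, 5.90 and 4.84% with PGE2 (-0.37 ± 0.12, adjusted p = 0.034). Its groups overlapped, and the call was lost without PGE2 A, B or C, without EP2 and EP4 antagonist A, C or D, and with DESeq2.

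The family was higher in untreated cells of 24 h than of 4 h. In untreated cells the share was 4.94, 4.84, 4.76 and 4.38% at 24 h, against 3.09, 4.07, 4.02 and 4.09% at 4 h, without overlap also when the shallow 4 h library is left out. Of 56 tested members 55 had a positive log2 fold change, with a median of 0.29 beside 0.01 for all genes. The test passed for 12, all higher, against 2.31% of all genes called higher. Rpl13a led with 427, 320, 315 and 293 CPM at 24 h, against 103, 185, 216 and 175 CPM at 4 h, without overlap (0.88 ± 0.16, adjusted p = 4e-05). Rpl41, the shortest ribosomal protein, stood at 1133, 1159, 1174 and 1091 CPM, against 565, 901, 804 and 844 CPM, also without overlap (0.49 ± 0.11, adjusted p = 0.0011). Also called were Rps19 (0.45), Rps18 (0.41), Rps26 (0.39), Rps3 (0.36) and Rps20 (0.31) of the 40S subunit, and Rpl8 (0.34), Rplp0 (0.33), Rpl32 (0.29) and Rpl13 (0.29) of the 60S subunit.

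In this comparison library A of untreated cells at 4 h was again the lowest for the members shown. Without it 4 members were called, and 3, 3 and 7 without untreated A, B and C of 24 h. Rpl13a, Rpl41 and Rps19 passed in 8 of 8 such fits. Relative to the family 1 member departed upwards, against 0.5% of all genes called higher on that scale, and it was Rpl13a (0.61 ± 0.17, adjusted p = 0.0088). This call was lost only without untreated A of 24 h, among these fits. So Rpl13a was the member that departed upwards between 4 h and 24 h of culture and downwards with poly I:C, and both comparisons use the untreated libraries of 24 h.

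**Figure D5:**
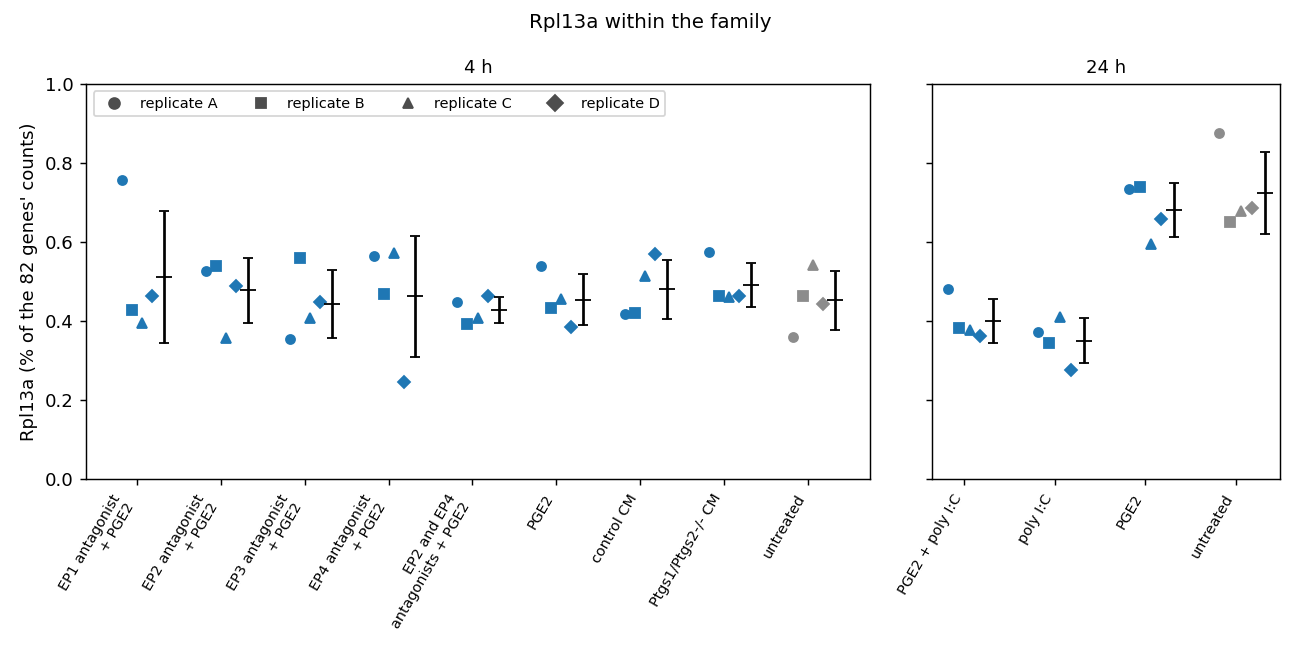
Rpl13a in percent of the family's counts by group at 4 h and at 24 h; markers are replicates A to D and the bars show the mean and SD of 4 libraries. The poly I:C groups, with libraries between 0.276% and 0.482%, lie below the untreated and PGE2 groups of 24 h, with libraries between 0.595% and 0.876%.

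The members furthest from the family on that scale did not pass the test in the cases that follow, all as log2 values. With PGE2 at 4 h they were Rpl6 (0.60), Rpl7 (0.44) and Rps15 (0.34) on the high side and Rps23 (-0.81), Rpl36 (-0.80) and Rpl23 (-0.48) on the low side. With PGE2 at 24 h they were Rpl19 (0.53), Rpl11 (0.41) and Rpl12 (0.33), and Rpl21 (-0.65), Rps23 (-0.33) and Rpl9 (-0.28). Between control CM and Ptgs1/Ptgs2-/- CM they were Rpl38 (0.42), Rps2 (0.25) and Rpl39 (0.22), and Rpl32l (-0.50), Rps23 (-0.47) and Rpl7 (-0.45). With the EP2 and EP4 antagonists Rps23 (0.92), Rpl35a (0.53) and Rpl23 (0.46) were highest and Rpl7 (-0.45) and Rpsa (-0.37) lowest beside Rps14. Between the times Rpl11 (0.52) and Rpl9 (0.42) followed Rpl13a, and Rpl36 (-0.46), Rpl19 (-0.27) and Rps28 (-0.20) were lowest. With poly I:C Rpl7 (0.46) and Rpl9 (-0.79) were not called, and stood at the ends beside members that were. Rps23 averaged 21.5 CPM and Rpl9 averaged 16.8 CPM, close to the 10.2 CPM that 3 counts make at the median depth.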

How the data were processed

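The authors deposited whole-number UMI counts per gene, 1 column per library. Per the labels' protocols, they came from the Drop-seq pipeline on GRCm38 with Ensembl release 75 after 3' sequencing of poly(A) RNA, and per the submitters' processing notes DESeq2 1.14.1 and GRCm38.p6 were also used. Aligner, strand use and the treatment of multiply matching reads: not given in the sources used here. Of 23136 lines 1 with a text entry was left out, and 20 with date-like symbols (0.105% of counts) were kept. Members and lists were chosen with earlier results of these data known.

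Tests were run in R 4.3.3 with edgeR 4.0.16 (TMM, filterByExpr by group, robust quasi-likelihood), over all genes of the 4 h libraries, the 24 h libraries or, between times, both untreated and both PGE2 groups, with Benjamini-Hochberg adjusted p of at most 0.05. Scripts were tested on simulated data. Of the 82 members 56 passed the filter at 4 h, 57 at 24 h and 56 between times, and 25 passed at neither time. The fit relative to the family used the members' summed counts as library size. CPM of single genes are TMM-adjusted within the fit, and levels over all libraries use plain totals. DESeq2 1.42.0 and other settings were alternatives. Named members are those called, the 5 most abundant, low paralogs and the 3 at each end of the family fits, of which 2 are not reported here. In 78 replicate pairs chi-square per degree of freedom was 1.41 to 3.35, so none differed by less than sampling noise.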

Additional observations from a re-analysis of the deposited data

Results flagged for a closer look

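In 52 checks of a measure within a group of 4 libraries, 7 found 1 library far from the other 3, and chance gives about 1 in 20. Untreated A at 4 h had a family share of 3.09%, below the others of its group, and 54107 counts. Library C with PGE2 and poly I:C had a family share of 3.25%, above the others, and 473 CPM of Rpl37, also above. Control CM A had a 60S to 40S ratio of 1.09, below the others, and 589 CPM of Rpl37, above them. The EP2 antagonist library A had a ratio of 1.122, below the others. EP4 antagonist A, with 42666 counts, had 315 CPM of Rpl37, below the others. Rpl37 and Rpl13a were included in these checks after their values were seen.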

How the results depend on the processing

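TMM factors from genes outside the family changed no call. On library totals alone the members called numbered 1 for PGE2 at 4 h, 1 for control CM against untreated, 7 for the EP2 and EP4 antagonists and 44 for poly I:C. There the members that reversed included Rpl14 -0.48, Rpl19 -0.12, Rpl26 -0.34, Rpl29 -0.16, Rpl35a -0.12, Rpl41 -0.49, Rpl7 -0.039, Rpl8 -0.48, Rplp0 -0.26, Rplp1 -0.32, Rps14 -0.50, Rps19 -0.20, Rps2 -0.28, Rps20 -0.33, Rps24 -0.10, Rps3 -0.34 and Rps9 -0.24 (log2). The family's share with poly I:C was higher by 0.619 points once totals were TMM-adjusted, and that setting gave 0.278 points for the EP2 and 0.169 for the EP2 and EP4 antagonists. Without the 5 most abundant members, the differences were 0.243 (EP2), 0.352 (EP3), -0.315 (PGE2, 24 h) and -0.854 points (poly I:C). With no filter the calls were 1 for control CM against untreated, 0 for the EP3 and for the EP2 and EP4 antagonists, 1 for PGE2 at 24 h, 13 for poly I:C, 1 for PGE2 added to poly I:C, 4 between times and 0 for departures with PGE2 at 4 h. DESeq2 gave 0 for the EP2 and EP4 antagonists, 12 for poly I:C, and 0 departures for PGE2 at 4 h and for the EP2 and EP4 antagonists. Fitting only the groups compared gave 2 for PGE2 at 4 h, 5 for control CM, 3 for the EP2 and EP4 antagonists and 9 for PGE2 at 24 h. Without the 2 shallow libraries the calls were 0 for control CM against untreated, 2 for the EP2 and EP4 antagonists and 4 between times, and departures with PGE2 at 4 h were 0. The cause of these changes was not tested.

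Leaving out 1 library gave 0 to 1 calls for PGE2 at 4 h, 0 to 4 for control CM against untreated, 0 to 1 for the EP3 and for the EP2 and EP4 antagonists, 1 to 6 for PGE2 at 24 h, 1 to 2 for PGE2 added to poly I:C, 0 to 1 for the interaction and 3 to 18 between times, and 0 to 1 departures for PGE2 at 4 h, the EP2 and EP4 antagonists and between times. With the replicate letter as a replicate block, 2 members were called for PGE2 at 4 h and 2 for the EP2 and EP4 antagonists, and no other count moved by over 1.5 times. Over all filtered genes same-letter libraries did not deviate together (correlations between -0.059 and 0.047 over 52 pairs). Counting noise can hide a shared deviation of a few genes, so whether the letters mark a pairing there was not tested. At the median depth 3 counts make 10.2 CPM, and 20 members averaged under 10 CPM.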
